A study of Mus musculus with 33 samples.

Results

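Macrophages and microglia, their counterparts in the brain, sense dying cells and lipids through receptors that signal by way of small adaptor proteins. TREM2 binds lipids and apolipoprotein E and depends on the adaptor TYROBP, while CSF1R, the receptor of CSF1 and IL34, sustains the survival of these cells. C1q opens the classical complement cascade, FCER1G is a second adaptor with a role like that of TYROBP, CD68 is a glycoprotein of late endosomes and lysosomes, AIF1 (IBA1) binds actin and calcium, and ITGB2 is the beta chain of the leukocyte integrins. The genes of these proteins were taken as a gene-level view of the TYROBP network. Whether each belongs to that pathway term was not checked. The study drew the term from the same libraries, so the direction of these genes here is not independent evidence of it.

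The 10 genes Tyrobp, Trem2, Csf1r, C1qa, C1qb, C1qc, Fcer1g, Cd68, Aif1 and Itgb2 were read, by gene identifier, from all 33 libraries, in which 37991 gene identifiers were counted. They were made from the mouse embryonic stem cell line E14TG2a at 3 stages: undifferentiated mESCs, embryoid bodies (EBs) grown for 8 days, and EBs that received 5 µM retinoic acid from day 4 (EBs + RA). Each stage held control clones #1, #4 and #7, transfected without a guide RNA, Neil1-/- clones #7, #9 and #11, and Neil2-/- clones #1, #11 and #14. Apex1-/- was 1 clone, #46, sequenced in technical duplicate. NEIL1 and NEIL2 are DNA glycosylases and APEX1 an AP endonuclease of base excision repair, and all mutants were made by CRISPR/Cas9 deletion. The comparisons ask how the loss of each enzyme altered gene activity at each stage. All values are bulk RNA, in which fewer cells of a type and less RNA per cell cannot be told apart.

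Each library held between 21523742 and 48350904 counts on genes, and levels are given as CPM, counts scaled to library size with TMM factors. At these depths 3 counts, the limit that a count of 0 allows, correspond to 0.0649 to 0.15 CPM, for counting error only. The whole-gene counts of the targeted genes were an uneven check of the labels, since a deletion of part of a gene leaves the rest to be counted. Neil1 lay at 1.42 to 31.6 CPM in its own mutant and at 5.89 to 9.83 CPM in controls, with the highest value in the mESC library of clone #7. Neil2 lay at 4.87 to 18.3 CPM against 3.32 to 15.1 CPM in controls. Apex1 was higher in the libraries labelled Apex1, at 56.0 to 85.5 CPM against 7.69 to 17.9 CPM, and statements on Apex1 below rest on that label.

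The sequences just upstream of 3 members are shown because Cd68, abundant in every library, and Trem2 and C1qc, at few or almost no counts, all hold the short core bound by the myeloid factor PU.1 (Spi1). RefSeq promoters (GRCm38.p6) were matched for 6 of the 10 members, and the 250 bases before the start are given, 5′ to 3′ on the gene's strand, with GAGGAA or its complement TTCCTC in capitals.
Cd68 (chr11:69666171-69666420, minus strand): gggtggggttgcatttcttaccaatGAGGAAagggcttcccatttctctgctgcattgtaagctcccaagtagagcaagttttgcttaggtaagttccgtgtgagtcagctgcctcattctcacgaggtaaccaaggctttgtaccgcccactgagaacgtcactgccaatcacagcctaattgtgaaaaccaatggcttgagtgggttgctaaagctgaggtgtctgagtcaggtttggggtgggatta
Trem2 (chr17:48346151-48346400, plus strand): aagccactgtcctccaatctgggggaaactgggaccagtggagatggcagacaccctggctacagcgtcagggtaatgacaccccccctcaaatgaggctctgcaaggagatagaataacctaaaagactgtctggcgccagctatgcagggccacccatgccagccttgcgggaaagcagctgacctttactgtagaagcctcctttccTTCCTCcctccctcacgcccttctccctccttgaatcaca
C1qc (chr4:136892915-136893164, minus strand): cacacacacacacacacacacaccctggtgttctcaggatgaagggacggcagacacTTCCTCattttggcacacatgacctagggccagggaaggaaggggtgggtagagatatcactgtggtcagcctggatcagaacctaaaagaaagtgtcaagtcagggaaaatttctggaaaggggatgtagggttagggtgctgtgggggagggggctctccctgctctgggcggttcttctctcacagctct
The core was present in 5 of these 6 members, at 225 bases upstream in Cd68, 40 in Trem2, 193 in C1qc, 30 in C1qb and 7 in Aif1, and these letters were not found in the window of Fcer1g. The same letters stand in 23.3% of all 32851 promoters of this length. GAGGAAGT, read on both strands and containing the core, was found in C1qc and stands in 2.44% of all promoters. A match is a description of letters and was set against no binding data.

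Most of the chosen members were at or near 0 counts. Since their place in the pathway term was not checked, this does not describe the genes of that term. The 3 C1q genes together had 24 counts over all 33 libraries, and 12 libraries held any of them. C1qc had 1 count in all, in control EBs of clone #1, and C1qa at most 2 counts in a library. C1qb had 2, 0 and 4 counts in Neil1 clones #7, #9 and #11 of EBs + RA, 4, 2 and 1 in Neil2 clones #1, #11 and #14, and 0 in the control and Apex1 libraries of that stage. These counts lie near the floor of 3 and did not pass the filter on low counts. Without that filter C1qb was called raised in Neil2 (FDR = 0.0865), and no fold is given against controls at 0. Tyrobp, the adaptor that names the network, had 30 counts in all and was at 0 in 16 libraries, with its highest value of 4 counts in Neil1 EBs + RA of clone #11. Aif1 had at most 7 counts and Trem2 at most 13. Fcer1g had 1 to 17 counts per library.

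These 7 members stood at 20 counts or fewer in every library, and no fold is given for C1q, Tyrobp or Aif1. Csf1r, Cd68 and Itgb2 were the 3 members above 20 counts in any library, and Cd68 and Itgb2 had 10 or more counts in all of them. Other genes of macrophages and leukocytes, chosen after their values were seen, were in part similarly low and in part not. Ptprc (CD45, the pan-leukocyte phosphatase) had at most 6 counts, Adgre1 (F4/80) at most 4, Lyz2 (lysozyme) at most 7, Cd53 at most 3 and P2ry12 (a microglial purine receptor) at most 1. Fcgr1 had at most 6 counts and Msr1 at most 4. Cx3cr1, the fractalkine receptor, reached 16 counts. Higher were Spi1, at 0 to 36 counts, and Itgam, the integrin alpha chain that pairs with ITGB2, at 6 to 142 counts. Some effector genes given below, such as Laptm5 and Spp1, were also well above these levels.

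**Figure D1:**
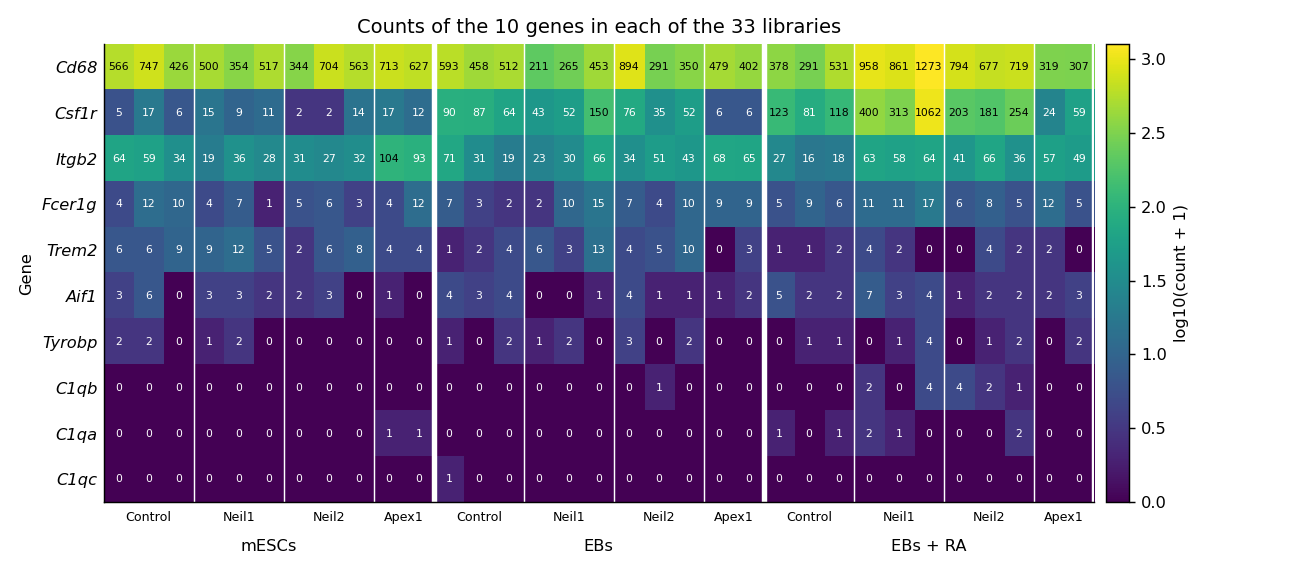
Counts of the 10 genes (rows) in each of the 33 libraries (columns, by stage and genotype); numbers are counts and colour is log10 of the count plus 1. Cd68, Csf1r and Itgb2 carry nearly all counts, and the highest count is 1273 for Cd68 in Neil1 EBs + RA.

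Compared per kilobase of exon, Cd68 was the most abundant member, with a mean of 15.8 CPM per kilobase over the 33 libraries. Csf1r followed at 0.758, Itgb2 at 0.553 and Fcer1g at 0.341 CPM per kilobase. Tyrobp, Aif1 and Trem2 lay at 0.0606, 0.0544 and 0.0331 CPM per kilobase. C1qb, C1qa and C1qc lay at 0.0142, 0.00877 and 0.000339 CPM per kilobase. The last 6 of these means rest on few counts, so their order is not resolved.

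Csf1r, the receptor tyrosine kinase, was at 2 to 17 counts in mESC libraries and reached its highest levels in Neil1 and Neil2 EBs + RA. In EBs + RA it lay at 3.96, 2.98 and 3.89 CPM in control clones #1, #4 and #7. Neil1 clones #7, #9 and #11 had 12.4, 11.3 and 42.5 CPM. Neil2 clones #1, #11 and #14 had 7.52, 5.74 and 8.84 CPM. All 6 Neil1 and Neil2 libraries lay above all 3 controls, and clone #11 of Neil1 stood far above the others. How many of all genes separate in this way, here and for the genes below, was not counted. Of all genes tested 21.2% were called raised in Neil1 and 18.3% in Neil2. The Neil1 change was 2.59 on the log2 scale (SE 0.523), or 6.03-fold higher (edgeR quasi-likelihood test, FDR = 0.00751, n = 3 clones). It was 1.68 (FDR = 0.00113) without clone #11. The Neil2 change was 1.03 (SE 0.242, FDR = 0.014), and it did not pass with all 4 genotypes in 1 fit (FDR = 0.122).

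The Apex1 duplicates went the other way. Their Csf1r values in EBs + RA were 1.02 and 2.02 CPM, both below the controls, with a change of -1.18 that did not pass the limit (SE 0.394, FDR = 0.153). It passed in DESeq2 (FDR = 0.0771), without control clone #7 (FDR = 0.0145), without the second duplicate (FDR = 0.0661), and with the duplicates entered as 2 samples (FDR = 0.0439), which treats technical repeats as clones. In EBs they had 0.242 and 0.227 CPM against 1.95, 3.39 and 2.35 CPM in control clones #1, #4 and #7. There Csf1r was lower by 3.41 on the log2 scale (SE 0.544), or 10.6-fold. That size rests on 6 counts in each duplicate, against 64 to 90 counts in the control libraries. The single Apex1 sample was assumed to vary like the control clones.

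Without RA no Csf1r change of the Neil mutants passed the test. Neil1 EBs had 2.15, 2.17 and 5.70 CPM, a change of 0.39 (FDR = 0.51), and Neil2 EBs had 2.47, 1.49 and 2.37 CPM, a change of -0.27 (FDR = 0.656). In mESCs the level lay between 0.0742 and 0.638 CPM in all libraries. Ranked by mean, Csf1r was highest in Neil1 EBs + RA at 22.1 ± 17.7 CPM (SD, n = 3), then in Neil2 EBs + RA at 7.37 ± 1.56 and in control EBs + RA at 3.61 ± 0.546 CPM. The first of these 2 steps was not resolved, since Neil1 and Neil2 in EBs + RA differed by 1.61 (SE 0.522) at FDR = 0.486.

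The Csf1r count has a limit of its own. The gene spans 61265226 to 61291803 on chromosome 18 (NCBIM37, plus strand), and its exons overlap those of Hmgxb3 on the minus strand; the library kit does not mark strand. In EBs + RA Hmgxb3 lay at 36.9 ± 3.32 CPM in controls, 38.3 ± 5.91 in Neil1 and 30.8 ± 3.51 in Neil2 (SD, n = 3). Its change was 0.03 in Neil1 (FDR = 0.894) and -0.26 in Neil2 (FDR = 0.166). Pdgfrb, the neighbouring receptor gene on the same strand, was lowered by -1.30 in Neil1 (FDR = 0.0091). The exons of the other 9 members overlapped no other gene.

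**Figure D2:**
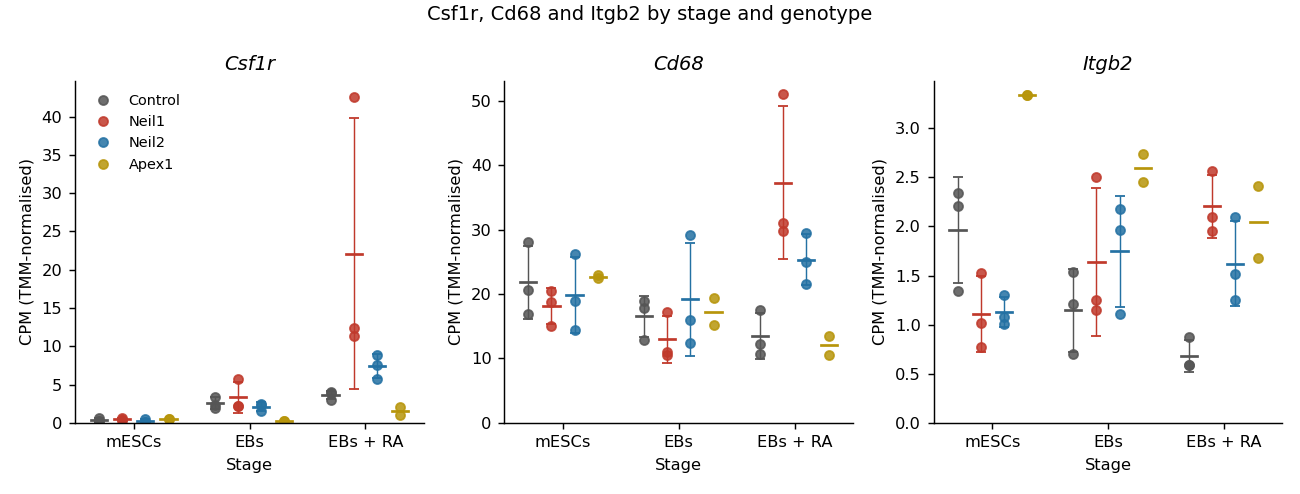
CPM (TMM-normalised) of Csf1r, Cd68 and Itgb2 by stage and genotype; points are libraries, lines are means and bars are SD over 3 clones, with none for the 2 Apex1 duplicates of 1 clone. In EBs + RA all Neil1 and Neil2 points of the 3 genes lie above the control points, and how many of all genes do so was not counted.

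Cd68, the lysosomal glycoprotein, was present at all stages and rose in the same libraries. In EBs + RA control clones #1, #4 and #7 had 12.2, 10.7 and 17.5 CPM. Neil1 clones #7, #9 and #11 had 29.8, 31.1 and 51.0 CPM, and Neil2 clones #1, #11 and #14 had 29.4, 21.5 and 25.0 CPM. No Neil1 or Neil2 library overlapped a control. The change was 1.45 in Neil1 (SE 0.27, FDR = 0.00516) and 0.92 in Neil2 (SE 0.214, FDR = 0.0137). The Apex1 duplicates had 13.5 and 10.5 CPM, within or just below the control range.

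In mESCs Cd68 stood at 21.8 ± 5.67 CPM in controls, 18.1 ± 2.78 in Neil1 and 19.9 ± 5.9 in Neil2 (SD, n = 3), and these ranges overlapped. EBs had 16.5 ± 3.23 CPM in controls, 12.9 ± 3.7 in Neil1 and 19.2 ± 8.79 in Neil2. Control EBs + RA, at 13.5 ± 3.57 CPM, lay within the spread of these EB groups. Cd68 lies on chromosome 11 at 69477715 to 69479655 (NCBIM37, minus strand).

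Itgb2, the integrin beta chain (chromosome 10, 76992997 to 77028453, NCBIM37, plus strand), also rose in both Neil mutants. Control clones #1, #4 and #7 had 0.869, 0.588 and 0.593 CPM in EBs + RA. The Neil1 clones had 1.96, 2.09 and 2.56 CPM and the Neil2 clones 1.52, 2.09 and 1.25 CPM. All were above the controls, at 16 to 27 counts per control library and 36 to 66 per mutant library. The change was 1.66 in Neil1 (SE 0.319, FDR = 0.0059) and 1.24 in Neil2 (SE 0.34, FDR = 0.0248).

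In the Apex1 libraries Itgb2 was the member that stood above controls at each stage. It had 3.34 and 3.34 CPM in mESCs against 1.35 to 2.34 CPM, a change of 0.76 (FDR = 0.494). In EBs it had 2.74 and 2.46 CPM against 0.699 to 1.54 CPM, a change of 1.17 at FDR = 0.0974, which was lost in DESeq2 (FDR = 0.174) and with all 4 genotypes in 1 fit (FDR = 0.219). In EBs + RA it had 2.41 and 1.68 CPM, a change of 1.56 at FDR = 0.105. That change passed without the filter on low counts (FDR = 0.0543), at 10 or more counts in every sample (FDR = 0.0866), by library totals (FDR = 0.0991), with all 4 genotypes in 1 fit (FDR = 0.0655), with the duplicates as 2 samples (FDR = 0.0172), without control clone #7 (FDR = 0.00786) and without the second duplicate (FDR = 0.0647). Itgb2 in mESCs was lower in both Neil mutants by point estimate, -0.84 in Neil1 (FDR = 0.331) and -0.83 in Neil2 (FDR = 0.259).

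Fcer1g could be tested in few comparisons. In EBs + RA it had 5, 9 and 6 counts in controls and 11, 11 and 17 counts in Neil1. The change of 1.01 (SE 0.475) did not pass (FDR = 0.127), although no library overlapped a control. Fcer1g entered that fit only through its Neil1 counts, so its direction there is not evidence of a rise. Trem2 had 0 to 4 counts in EBs + RA of every genotype, and its highest EB values were 13 counts in Neil1 clone #11 and 10 in Neil2 clone #14, against 1 to 4 in control EBs. Without the filter on low counts the fit called Trem2 raised in Neil1 EBs at 2.00 (FDR = 0.0453), a change that rests on these few counts.

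**Figure D3:**
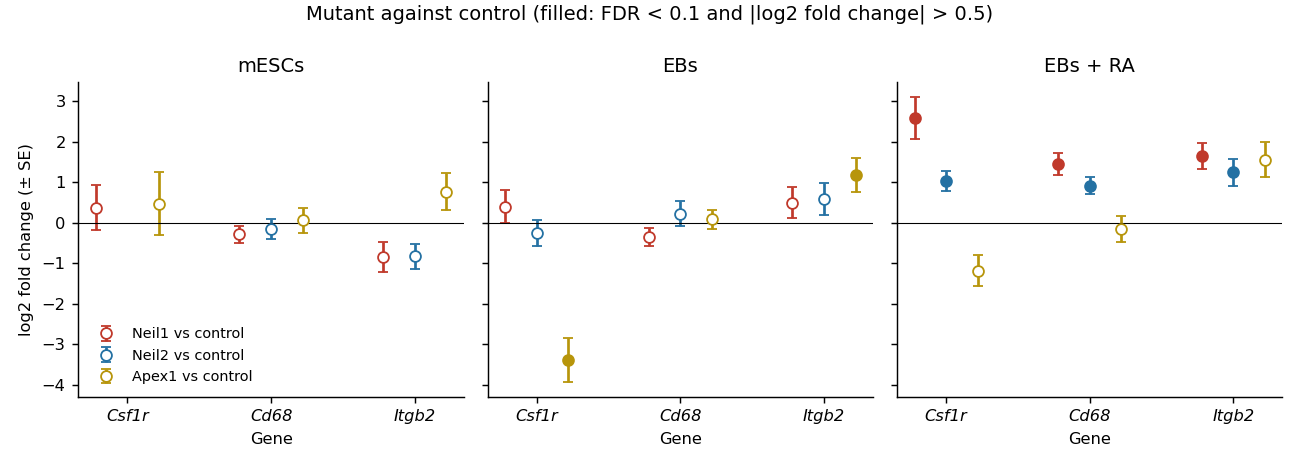
Log2 fold change of Csf1r, Cd68 and Itgb2 in each mutant against control at each stage, with bars of 1 SE; filled points are DE. The 6 changes of Neil1 and Neil2 in EBs + RA are filled, from 0.92 to 2.59, and the Csf1r change of Apex1 is below 0 in EBs and EBs + RA.

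Counted over the members, 3 of 4 tested were raised in Neil1 EBs + RA and 3 of 3 in Neil2 EBs + RA, where 21.2% and 18.3% of all genes tested were raised. A gene was called differentially expressed (DE) at FDR below 0.1 and a log2 change above 0.5 in size. A gene with low counts enters a fit only where its counts in some group suffice, so the tested members are not all members. Over the members tested, not all 10, the median change was 1.55 in Neil1 and 1.03 in Neil2, against 0.0015 and 0.0047 over all genes tested. The Neil1 count and median include Fcer1g, which entered only through its Neil1 counts and was not tested in Neil2. In Apex1 EBs + RA none of 4 passed in edgeR, where 5.32% of genes were raised and 3.02% lowered. There 2 members had an unadjusted p under 0.05, and DESeq2 called 1.

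In EBs none of 3 passed in Neil1 and none of 3 in Neil2, where 23.5% and 16.3% of genes were called in either direction. DESeq2 called 0 in both, and 0 had an unadjusted p under 0.05. In Apex1 EBs 1 of 4 was raised and 1 lowered, where 7.49% of genes were raised and 9.1% lowered. In mESCs none of 3 passed in Neil1, none of 2 in Neil2 and none of 4 in Apex1, where 1.82%, 1.83% and 0.0% of genes were called in either direction. DESeq2 called 0 there, and 1 member had an unadjusted p under 0.05, Itgb2 in Neil2. These 3 mutant comparisons share the same control clones at each stage.

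Neil1 and Neil2 were also set against each other. None of the members tested differed at any stage in edgeR, where 0.0% of genes were called. In EBs + RA 2 of 3 members had an unadjusted p under 0.05, Csf1r and Cd68, and DESeq2 called 1, Csf1r. Cd68 differed by 0.58 (SE 0.247, FDR = 0.486) and Itgb2 by 0.46 (SE 0.313, FDR = 0.577).

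The order of the stages differed between the 3 measured members. Csf1r rose from mESCs to EBs in each genotype with 3 clones, by 2.80 in controls (SE 0.477, FDR = 0.00176), 2.83 in Neil1 (FDR = 0.00224) and 3.25 in Neil2 (FDR = 0.00515). In mESCs Csf1r had 5 to 17 counts in control libraries, 9 to 15 in Neil1 and 2 to 14 in Neil2. The EB libraries of these genotypes had 35 to 150, so the sizes of the rise rest on few mESC counts. In the mESC comparison of Neil2 with controls Csf1r did not pass the filter on low counts. It therefore entered the control and Neil2 stage fits through its EB counts. Csf1r was the 1 member of 3 tested that was called from mESCs to EBs, where 18.5%, 13.1% and 14.4% of genes were raised. Of all genes 20.2% were lowered in controls and 14.7% in Neil1. Cd68 changed by -0.44 in controls (FDR = 0.145) and Itgb2 by -0.80 (FDR = 0.114). Since the same clones were followed through the stages, clone was also entered as a block. With it Itgb2 was lowered in controls (-0.83, FDR = 0.0746) and Cd68 was lowered in Neil1 (-0.51, FDR = 0.0692).

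The members were also compared between EBs and EBs + RA within each genotype of 3 clones. Between EBs and EBs + RA, 0 of 3 members passed in controls, where 44.1% of genes were called in either direction and 20.7% were lowered. DESeq2 called 0 and 0 had an unadjusted p under 0.05. Csf1r changed by 0.53 (FDR = 0.136), Cd68 by -0.26 (FDR = 0.358) and Itgb2 by -0.73 (FDR = 0.126), the last of which passed with clone as a block (-0.69, FDR = 0.0932). In Neil1, Csf1r rose by 2.71 (SE 0.644, FDR = 0.00954) and Cd68 by 1.52 (SE 0.276, FDR = 0.00213), or 2 of 4 members where 28.2% of genes were raised. In Neil2, Csf1r rose by 1.80 (SE 0.301, FDR = 0.00261), or 1 of 3 members where 21.4% were raised. With so few members tested, these counts were not tested against the shares over all genes and are not read as a result about the members. The Apex1 duplicates went from 0.242 and 0.227 CPM of Csf1r in EBs to 1.02 and 2.02 CPM in EBs + RA, with no test.

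The difference between these RA responses was tested by an interaction. For Neil1, Cd68 differed by 1.83 (SE 0.381, FDR = 0.00538) and Csf1r by 2.22 (SE 0.743, FDR = 0.0496), or 2 of 4 members where 17.3% of genes were called higher. Itgb2 differed by 1.17 (FDR = 0.12) and passed with clone as a block (1.20, FDR = 0.0518). For Neil2, Csf1r differed by 1.27 (SE 0.404, FDR = 0.0631), or 1 of 3 members where 7.42% were called higher. Cd68 differed by 0.68 (FDR = 0.342) and passed with clone as a block (0.76, FDR = 0.066). The Csf1r differences depended on single clones. Without control clone #4 they were 1.85 (FDR = 0.21) in Neil1 and 0.91 (FDR = 0.337) in Neil2, and without control clone #1 they were 2.46 (FDR = 0.113) and 1.53 (FDR = 0.105). The Neil2 difference was also lost without Neil2 clone #11 (FDR = 0.106) or #14 (FDR = 0.204).

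Among genes that act with the members in signalling, most of those tested were raised in EBs + RA. Of the 19 genes of TYROBP, TREM2 and CSF1R signalling, 10 were tested, 8 were raised in Neil1 and 7 in Neil2, and none was lowered. Of all genes tested 21.2% were raised and 19.9% lowered in Neil1, and 18.3% raised and 16.6% lowered in Neil2. Their median change was 1.31 in Neil1 and 1.18 in Neil2, beside 0.0015 and 0.0047 over all genes. The list was drawn up with earlier results of these libraries known. Its 3 most abundant members were Apoe, Inpp5d and Plcg2. Apoe, the lipid carrier bound by TREM2, rose from 164 ± 108 CPM in controls to 371 ± 75.5 in Neil1 and 451 ± 176 in Neil2 (SD, n = 3). Inpp5d, the inositol phosphatase that limits this signalling, rose from 10.7 ± 2.98 CPM to 58.4 ± 15.0 and 55.3 ± 17.7 CPM. Plcg2, the phospholipase downstream of TREM2, rose from 15.2 ± 3.73 to 29.9 ± 2.65 and 33.8 ± 0.791 CPM. In Apex1 EBs + RA 5 of 11 tested were raised, where 5.32% of all genes were, among them Inpp5d at 2.54 (FDR = 0.0169) and Plcg2 at 1.02 (FDR = 0.0963).

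Inpp5d and Plcg2 were not low in the undifferentiated cells. In controls Inpp5d went from 131 ± 17.5 CPM in mESCs over 69.9 ± 9.05 in EBs to 10.7 ± 2.98 CPM in EBs + RA, and Plcg2 from 63.5 ± 4.08 over 55.7 ± 12.9 to 15.2 ± 3.73 CPM. From EBs to EBs + RA in controls 8 of 11 tested genes of the list were lowered and none raised. The 7 pluripotency markers ran the same way. Their summed level was 3430 to 3820 CPM in control mESCs, 1420 to 1500 in control EBs and 80.9 to 125 in control EBs + RA. In EBs + RA it was 275 to 382 CPM in Neil1, 195 to 556 in Neil2 and 556 to 689 in Apex1. All 7 pluripotency markers were raised in Neil1 and in Neil2. Their part in the rise of the signalling genes was not tested.

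The effector genes of macrophages and microglia gave a mixed list. Of 45 genes 24 were tested in EBs + RA, 14 were raised and 1 lowered in Neil1, and 12 were raised and 3 lowered in Neil2, with medians of 1.05 and 0.81. The shares over all genes were 21.2% raised and 19.9% lowered in Neil1, and 18.3% and 16.6% in Neil2. The 4 most abundant were Spp1, Laptm5, Lgals3 and Slc7a7. Spp1 (osteopontin, a secreted matrix protein) rose from 36.3 ± 4.79 CPM to 138 ± 42.3 in Neil1 and 212 ± 68.5 in Neil2. Laptm5, a lysosomal membrane protein of blood cells, rose from 1.81 ± 0.614 to 6.00 ± 0.71 and 6.84 ± 2.64 CPM. Lgals3 (galectin 3, a sugar-binding protein also made by epithelia) rose from 15.8 ± 2.01 to 110 ± 107 and 38.4 ± 11.2 CPM. Slc7a7, an amino acid transporter, rose by 1.25 in Neil1 (FDR = 0.0205), and its change in Neil2 was 0.60 (FDR = 0.238). In control mESCs Spp1 stood at 399 ± 107 CPM and Laptm5 at 63.2 ± 7.73 CPM. Tmem119, a microglial membrane protein, was lowered by -2.80 in Neil1 (FDR = 0.000231) and -2.16 in Neil2 (FDR = 0.000366), and was named after its values were seen.

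Lysosomal genes share the compartment of the CD68 protein. All 15 were tested, 13 were raised in Neil1 with a median of 0.88 and 6 in Neil2 with a median of 0.49, and none was lowered, where 21.2% and 18.3% of all genes were raised. With Neil1 tested against Neil2, 0 of the 15 genes were called in edgeR, with a median difference of 0.45. In that comparison 0.0% of all genes were called, 1608 had an unadjusted p under 0.05 and DESeq2 called 111. Psap (saposin precursor) rose by 1.18 in Neil1 (FDR = 0.0351), Lamp1 by 0.97 (FDR = 0.00541), Ctsl by 1.32 (FDR = 0.0192) and Ctsd by 1.11 (FDR = 0.0119), the latter pair being cathepsins. In Neil2, Lamp1 rose by 0.58 (FDR = 0.0339). The Neil2 changes of Psap, Ctsl and Ctsd were 0.44 (FDR = 0.155), 0.27 (FDR = 0.476) and 0.44 (FDR = 0.0715), the last below the size limit of 0.5. In Apex1 EBs + RA none of the 15 was called in edgeR.

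The transcription factors of myeloid cells moved in both directions. Of 14 factors 12 were tested in EBs + RA, with 4 raised and 6 lowered in Neil1 and 3 raised and 4 lowered in Neil2. Over all genes 21.2% were raised and 19.9% lowered in Neil1, and 18.3% and 16.6% in Neil2. Cebpb rose from 13.4 ± 3.83 CPM to 29.7 ± 3.91 and 39.8 ± 14.5 CPM. Cebpa changed by 0.75 in Neil1 (FDR = 0.113) and rose by 1.12 in Neil2 (FDR = 0.0111). Myb fell from 4.29 ± 2.49 to 0.627 ± 0.188 and 0.518 ± 0.182 CPM, and Maf fell by 1.30 in Neil1 and by 1.87 in Neil2. Spi1, which encodes PU.1 and was named after its values were seen, is counted among the raised factors of both. It had 0 to 5 counts in control EBs + RA libraries, 11 to 19 in Neil1 and 10 to 12 in Neil2, and passed the filter only through the mutant groups, so no fold is given. In control mESCs it stood at 1.02 ± 0.0578 CPM. Of the 13 complement genes outside C1q, 11 were tested, with 4 raised in Neil1, and 2 raised and 1 lowered in Neil2, where 18.3% of all genes were raised and 16.6% lowered, so the Neil2 share is near the background. Cd55, which protects cells from complement, rose by 1.74 in Neil1 (FDR = 0.0223). Serping1, the C1 inhibitor, was lowered by -0.54 in Neil2 (FDR = 0.0302), and Cd59a was not called at 0.07 in Neil1 (FDR = 0.796) and 0.49 in Neil2 (FDR = 0.0702).

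**Figure D4:**
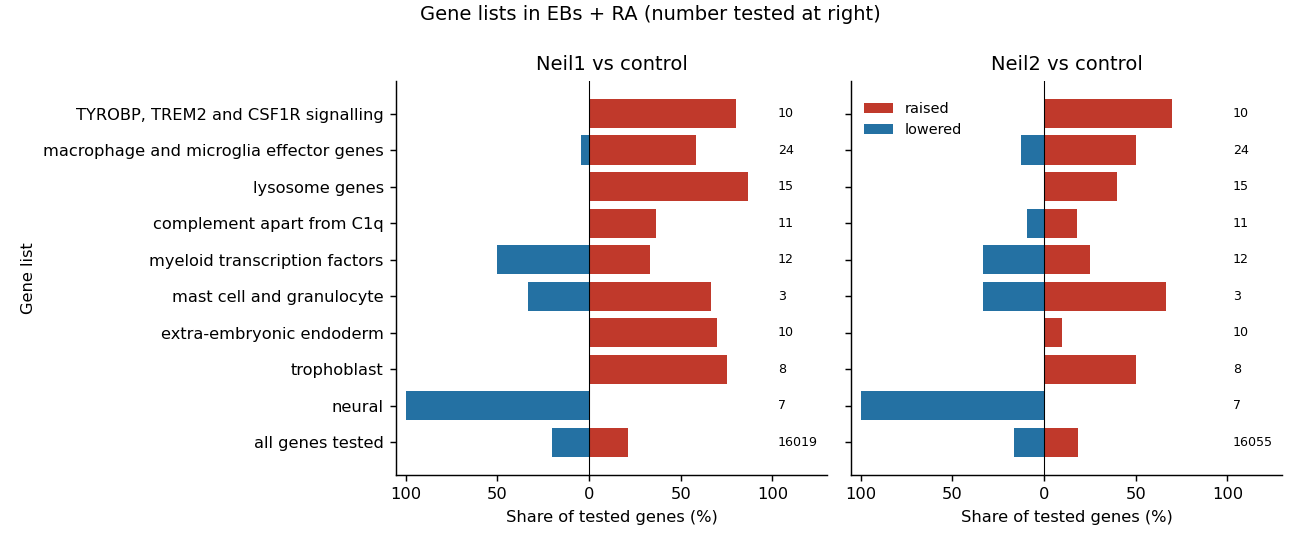
Share of tested genes raised (right) and lowered (left) in EBs + RA of Neil1 and Neil2 for a choice of the gene lists. All genes tested are also shown, and the number tested stands at the right of each bar. The pluripotency, mesenchymal, endothelial, megakaryocyte, primitive erythroid and lymphoid lists are not drawn. The signalling list reaches 8 of 10 raised in Neil1 and 7 of 10 in Neil2, and the neural list 7 of 7 lowered in both.

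Markers of other cell types moved in the same libraries. The summed level of 8 trophoblast markers in EBs + RA was 73.7 to 98.5 CPM in controls, 120 to 505 in Neil1, 102 to 194 in Neil2 and 85.8 to 97.4 in Apex1, with no marker at 0 in all libraries of a group. The sum of 505 CPM belonged to Neil1 clone #11, the library with the highest Csf1r, while clones #7 and #9 had 193 and 120 CPM. Of the 8 markers, 6 were raised in Neil1 and 4 in Neil2, among them Tfap2c at 1.51 and 1.11 and Hand1 at 2.52 and 0.86. Over all genes tested 21.2% were raised in Neil1 and 18.3% in Neil2. Csf1r is also known from trophoblast of the placenta. In EBs the trophoblast sum was 232 to 291 CPM in controls, 143 to 164 in Neil1, 109 to 166 in Neil2 and 129 to 134 in Apex1, where Csf1r was at 0.234 CPM on average. The 10 markers of extra-embryonic endoderm summed to 249 to 790 CPM in control EBs + RA, 913 to 1830 in Neil1 and 304 to 959 in Neil2. Of these markers 7 were raised in Neil1 and 1 in Neil2, beside the same shares of 21.2% and 18.3%, so the Neil2 count is not above its share. Apex1 EBs + RA summed to 364 to 367 CPM, with none of the 10 called. In Apex1 EBs, where Csf1r was lower, the endoderm markers had a median change of -2.21 and summed to 138 to 154 CPM against 487 to 960 in controls. No endoderm marker was at 0 in all libraries of a group. The part of either cell type in the member changes was not tested.

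**Figure D5:**
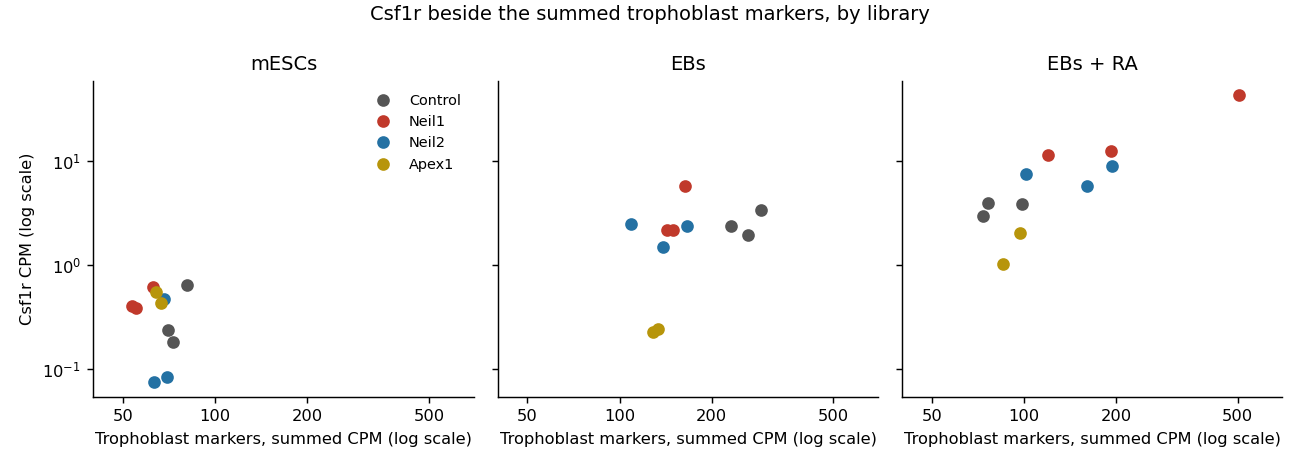
Csf1r CPM against the summed CPM of 8 trophoblast markers at each stage, both on log scales; each point is a library. In EBs + RA Neil1 clone #11 is highest on both axes, at 42.5 and 505 CPM.

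Blood lineages outside the macrophage were low throughout. Beside the calls below, 21.2% of all genes tested were raised and 19.9% lowered in Neil1 EBs + RA, and 18.3% and 16.6% in Neil2. A marker at few counts enters a fit only where its counts in some group suffice, so the number tested can differ between the mutants. The 12 mast cell and granulocyte markers summed to 2.16 to 13.2 CPM over all groups, and in EBs + RA 3 were tested, with Hdc (histidine decarboxylase) and Ltf (lactoferrin) raised and Prtn3 lowered in both Neil mutants. In that stage 4 to 6 of the 12 were at 0 in every library of control, Neil1 and Apex1, and 1 in Neil2. The 9 primitive erythroid markers summed to 4.02 to 6.91 CPM in control EBs + RA, 4.76 to 6.28 in Neil1 and 5.37 to 5.74 in Neil2. The 8 lymphoid markers summed to 2.72 to 2.90 CPM in control EBs + RA, 4.44 to 5.63 in Neil1 and 4.56 to 6.15 in Neil2, and the 7 megakaryocyte markers to 6.98 to 8.03, 10.6 to 11.5 and 11.0 to 12.2 CPM. Gata1 was raised and Epor lowered in both Neil mutants among 2 erythroid genes tested, Cd79b was the 1 raised of 3 lymphoid genes in Neil1 with Cd3e beside it among 4 in Neil2, and Itga2b was raised in both with Gp5 beside it in Neil1. Their part in the member changes was not tested. The 7 neural markers fell in both, from 303 to 499 CPM in controls to 47.2 to 62.5 in Neil1 and 51.5 to 66.9 in Neil2, and all 7 were lowered. The 7 mesenchymal markers fell from 198 to 281 CPM to 14.4 to 23.4 in Neil1 and 31.1 to 52.8 in Neil2, with 6 of 6 tested lowered. The 9 endothelial markers summed to 43.8 to 49.5 CPM in controls, 37.0 to 169 in Neil1 and 31.5 to 60.5 in Neil2, with Pecam1 and Tek raised and Aplnr, Emcn, Kdr and Tie1 lowered in both.

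The 3 measured members did not share 1 pattern over the libraries. Across all 33 libraries Pearson's r of log2 CPM was 0.29 for Csf1r and Cd68, -0.04 for Csf1r and Itgb2 and 0.28 for Cd68 and Itgb2, with Spearman's rho of 0.23, -0.09 and 0.24. Without the mESC libraries r for Csf1r and Cd68 was 0.63. These are descriptions over libraries that share clones and stages.

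The genes most like the mean of the members were Adamtsl5 (r = 0.81), Zfp707 (0.79), Tmem125 (0.78), Sohlh1 (0.77), A930001C03Rik (0.77), Ggcx (0.77), Fam151a (0.76) and Pak6 (0.76). That mean weighs members at few counts as much as the others. Taken alone, a choice made after the data were seen, Csf1r was most like Serpinb9e (r = 0.96), Krt7 (0.95), Dhrs9 (0.95), Fgd3 (0.95) and Psca (0.94). Krt7 is a keratin of simple epithelia. Cd68 alone was most like Rasal1 (0.86), Arhgap27 (0.84), Snhg11 (0.82), Adamtsl5 (0.82) and Nrip3 (0.82).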

How the data were processed

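RNA-seq libraries of 12 groups (33 libraries) were grouped by the sample labels. The authors prepared them with the TruSeq RNA v2 kit, aligned the reads to NCBIM37 with TopHat2 (version 2.0.9) and Bowtie2 (2.1.0), and counted them per gene with HTSeq (0.5.4). The deposited values are raw counts per gene, as the authors made them. Summary entries that name no gene were left out of totals: 5.86% to 8.85% of reads fell on no feature, 1.89% to 2.88% were ambiguous and 11.44% to 19.85% were not unique. Of 37991 identifiers, 37205 were named in the NCBIM37 annotation and 786 were not.

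Counts were tested with edgeR (version 4.0.16, R 4.3.3) after TMM scaling and filterByExpr, with a robust quasi-likelihood fit, and p-values were adjusted by Benjamini-Hochberg over all genes tested. DE calls required FDR below 0.1 and a log2 change above 0.5 in size, and interactions FDR below 0.1. Only the groups compared entered a fit. The Apex1 duplicates were summed to 1 sample. Log2 CPM used a prior count of 2. Clones are separate lines, so p-values measure the spread between clones. None of the 30 pairs of libraries within a group was a copy (chi-squared per degree of freedom 5.94 to 137). Same-numbered libraries of different stages are the same clone. The correlations of their deviations ran from -0.41 to 0.44, with 11 of 18 above 0.1. The members and gene lists were chosen with earlier results of these data known. All 10 members were named, and from each list the 4 genes with the highest mean CPM. A gene that this rule names is not reported here. The 8 genes most like the members were taken among genes at 1 CPM or more in at least 3 libraries. The list symbols Crry and Sox1 had no match in the annotation. Alternatives were DESeq2 (1.42.0), RLE scaling, no filter, at least 10 counts in every sample, FDR below 0.05, each replicate left out, a replicate block, all 4 genotypes in 1 fit, the Apex1 duplicates as 2 samples, CPM by library total, and, chosen after seeing the data, library totals without TMM. The fits were tested on simulated data for Neil1 against control in EBs + RA and for the Neil1 interaction. At a true log2 change of 1 they found 109 of 193 and 56 of 188 changed genes, among 127 and 67 calls. At a true change of 2 they found 183 of 196 and 157 of 196, among 205 and 180 calls. In each run the calls beyond those found were false. The simulated data held far fewer changed genes than were called here. They also held no stage effect and no link between libraries of the same clone, so they do not give the error rate in these data. Protein sequences were not used here, so no motif of the adaptors was searched. Promoters are from RefSeq (GRCm38.p6); Python 3.11.15, pandas 2.3.3, numpy 2.4.6 and scipy 1.17.1 were used for tables.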

Additional observations from a re-analysis of the deposited data

Results flagged for a closer look

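The RA response of 2 genes differed between genotypes by a test of the difference itself. Cd68 rose more with RA in Neil1 than in controls, by 1.83 on the log2 scale (SE 0.381), and Csf1r by 2.22 (SE 0.743). In Neil2 the Csf1r response exceeded that of controls by 1.27 (SE 0.404), a call at FDR = 0.0631 that was lost when control clone #1 or #4 or Neil2 clone #11 or #14 was left out (FDR up to 0.337). The Neil1 call for Csf1r was lost without control clone #1 (FDR = 0.113) or #4 (FDR = 0.21).

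Opposite directions in every library were seen in 2 cases, and the differences between the mutants were not tested. The Apex1 side is 1 clone in technical duplicate, and how many of all genes show such a pattern was not counted. In EBs + RA, Csf1r changed by 2.59 in Neil1 and 1.03 in Neil2, with every library above the controls, and by -1.18 in Apex1, with both duplicates below them. The Apex1 change was not called in the main fit. In mESCs, Itgb2 changed by -0.83 in Neil2, with every library below the controls, and by 0.76 in Apex1, with both duplicates above them. Neither Itgb2 change was called in the main fits. Groups of 3 libraries or fewer were not examined for single outlying samples.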

How the results depend on the processing

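Of 17 member changes called, 191 of 206 alternative values kept direction and call, 15 kept direction without the call, and 0 changed sign. The rises of Csf1r, Cd68 and Itgb2 in Neil1 EBs + RA kept the call in every alternative, and so did Cd68 and Itgb2 in Neil2. Among the 20 comparisons, the number of members called was within 1.5 times in 203 of 248 alternatives. The others follow, with the cause not tested unless the filter sets it. Without the filter on low counts the number was 2 in Neil1 EBs (0 with it), 1 in Apex1 EBs + RA (0), 2 in control EBs against mESCs (1), 4 in Neil1 EBs + RA against EBs (2) and 1 in the Neil1 interaction (2). Requiring 10 counts in every sample removed Csf1r from the EBs against mESCs comparisons, leaving 0 in controls, Neil1 and Neil2, and gave 1 in Apex1 EBs + RA. At FDR below 0.05 it was 1 in Apex1 EBs (2) and 0 in the Neil2 interaction (1). DESeq2 gave 1 in Apex1 EBs, 1 in Apex1 EBs + RA and 1 in Neil1 against Neil2 EBs + RA (0). All 4 genotypes in 1 fit gave 1 in Apex1 EBs and 1 in Apex1 EBs + RA, and the duplicates as 2 samples gave 2 in the latter. Library totals without TMM, chosen after seeing the data, gave 1 in Apex1 EBs, 1 in Apex1 EBs + RA, 1 in control EBs + RA against EBs (0) and 2 in Neil1 EBs against mESCs (1). That scaling moved the median of all genes by 0.3 in Neil1, 0.25 in Neil2 and 0.14 in control EBs + RA against EBs.

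With the replicate block, clones paired across stages gave 2 in control EBs against mESCs (1), 1 in control EBs + RA against EBs (0), 2 in Neil1 EBs against mESCs (1) and 2 in the Neil2 interaction (1), with no other count moved over 1.5 times. Between genotypes the numbers are only labels (27 correlations of deviations from -0.37 to 0.46, with 8 above 0.1), and the replicate block left the counts at 3 in Neil1 and 3 in Neil2 EBs + RA. Leaving out 1 library at a time gave 1 to 2 in Apex1 EBs, 0 to 2 in Apex1 EBs + RA, 0 to 1 in Neil1 EBs, 0 to 1 in Neil2 mESCs, 0 to 2 in the Neil2 interaction and 1 to 3 in the Neil1 interaction. Leaving out 1 clone gave 1 to 3 in control and in Neil2 EBs against mESCs, 1 to 2 in Neil1 EBs against mESCs, 0 to 1 in control and 1 to 2 in Neil2 EBs + RA against EBs. Counts over all genes moved most in mESCs, where Neil1 had 283 genes (0 to 2011 over all alternatives), Neil2 286 (1 to 1494) and Apex1 0 (0 to 5621, with 2175 at an unadjusted p under 0.05). Apex1 EBs + RA had 1400 (449 to 5435), Apex1 EBs 2796 (1499 to 4068), Neil2 EBs 2545 (1407 to 3705), the Neil1 interaction 5374 (2582 to 6610) and the Neil2 interaction 2581 (970 to 4163). Neil2 had 4263 in EBs against mESCs (838 to 5070) and 6732 in EBs + RA against EBs (2698 to 7583). Levels by library total stayed within 1 SD for all 27 group means of Csf1r, Cd68 and Itgb2. The correlation of Csf1r with Cd68, 0.29, was 0.63 without the mESC libraries. That of Csf1r with Itgb2, -0.04, was 0.22 without the Apex1 libraries. Calls on genes at 20 counts or fewer rest on few reads.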
